A study of Mus musculus with 8 samples.

Results

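Of the 875 genes in the deposited expression table of mouse embryonic fibroblasts (MEFs), 69 had a mean at least 2-fold below control both in cells expressing *EZHIP* and in EED-null cells while their mean in cells expressing H3.3 K27M stayed within 2-fold of control. Differences were taken as log2(group mean + 1), so the members had differences from control of -1 or lower in EZHIP and in EED-null cells and between -1 and 1 in K27M cells. 77 genes met these limits, and 8 of them (*Adamts15*, *Agtr2*, *Chl1*, *Ddx58*, *Dlk1*, *Kcnab2*, *Plagl1* and *Stat2*) were left out by name or gene family. The measured values therefore chose the members, and all differences from control are given as a description without a test.

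RNA was sequenced from 8 libraries, 2 from each of 4 groups of cells. All cells descended from MEFs of 1 mouse embryo in which *Eed* carries loxP sites (EED-floxed), and the parental cells were the control. The other groups were the same cells made to express human *EZHIP* or histone H3.3 K27M from a lentivirus with an EF1a promoter and puromycin selection, and a line grown from a single cell after a hit-and-run Cre lentivirus had deleted *Eed* (EED-null), so the EED-null group is 1 clone. The table holds only genes at least 2-fold different between EZHIP and control, and *Eed* is not among them, so the deletion could not be checked in these values. The table's values are RSEM expression values divided by the authors' size factors. They are not scaled by gene length, and levels are therefore compared between libraries and not between genes. By the size of the smallest step, the members held between 8670 and 49790 reads in a library, with a median of 51 to 321 reads per member. At this depth no member lay at 3 reads or fewer in the control libraries, against 5 and 8 members in the EZHIP libraries, 6 and 7 in the EED-null libraries, and 0 and 1 in the K27M libraries.

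EED is a core subunit of Polycomb repressive complex 2 (PRC2), the enzyme that places the H3K27me3 mark and keeps developmental genes silent. EZHIP and H3 K27M are inhibitors of PRC2, and both are found in brain tumors with low H3K27me3. The largest role among the members is interferon and innate immunity. Many interferon-stimulated genes are switched on through a DNA element called the ISRE (interferon-stimulated response element) and encode sensors and effectors against viruses and intracellular microbes. Fibroblasts express many of them at a low level without infection, and they also make the elastic fibers and growth factors found in the other roles.

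The members had similar medians in both chosen lines. Their median log2 difference from control was -1.74 in EZHIP cells (range -5.07 to -1.01) and -1.73 in EED-null cells (range -6.75 to -1.02). In single libraries the median was -1.72 and -1.74 for EZHIP and -1.71 and -1.65 for EED-null. All 69 members were below both control libraries in both EZHIP libraries, against 43.4% of the 875 genes, and in both EED-null libraries, against 38.6%, which follows from how they were chosen. Members just inside the limits were *Ptplad2* at -1.01 in EZHIP, *Tap1* at -1.02 in EED-null, and *4632428N05Rik* at -0.94 and *Ifi203* at 0.98 in K27M. *Gstt1* (-0.98 in EED-null), *Chpf* (-1.07 in K27M) and *Trim30a* (1.01 in K27M) lay just outside.

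The K27M values were less uniform than a 2-fold limit conveys. The median difference was -0.15 (range -0.94 to 0.98), and -0.11 and -0.12 in the single libraries, but only 36 of the 69 members were within 0.5 of control on the log2 scale. Both K27M libraries lay below both control libraries for 34 members (33.7% of all 875 genes did so) and above both for 24 members (57.4% of all genes), and they overlapped with control for the other 11. The direction differed by role. Of the 24 members with an interferon or innate immune role, 18 were above both control libraries in K27M cells and 4 below, with a median difference of 0.45. Of the 45 other members, 6 were above and 30 below. Rescaling the libraries on the 875 genes moved the median of all listed genes by -0.31 in EZHIP, -0.39 in EED-null and -0.45 in K27M. On that scale the K27M median of the members was -0.61, that of the interferon and innate immune members was -0.01 (9 above both controls and 8 below), and 46 members were below both controls and 11 above. Which members count as raised in K27M thus depends on the scaling, while the interferon and innate immune members had the highest K27M median of the 6 roles on both scales. The 2 scales are not equal alternatives. Rescaling by medians presumes mostly unchanged genes, but all 875 were selected for a change in EZHIP, with 495 above and 380 below control. It can therefore remove a true imbalance between rises and falls. The roles were assigned after the values had been seen.

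**Figure D1:**
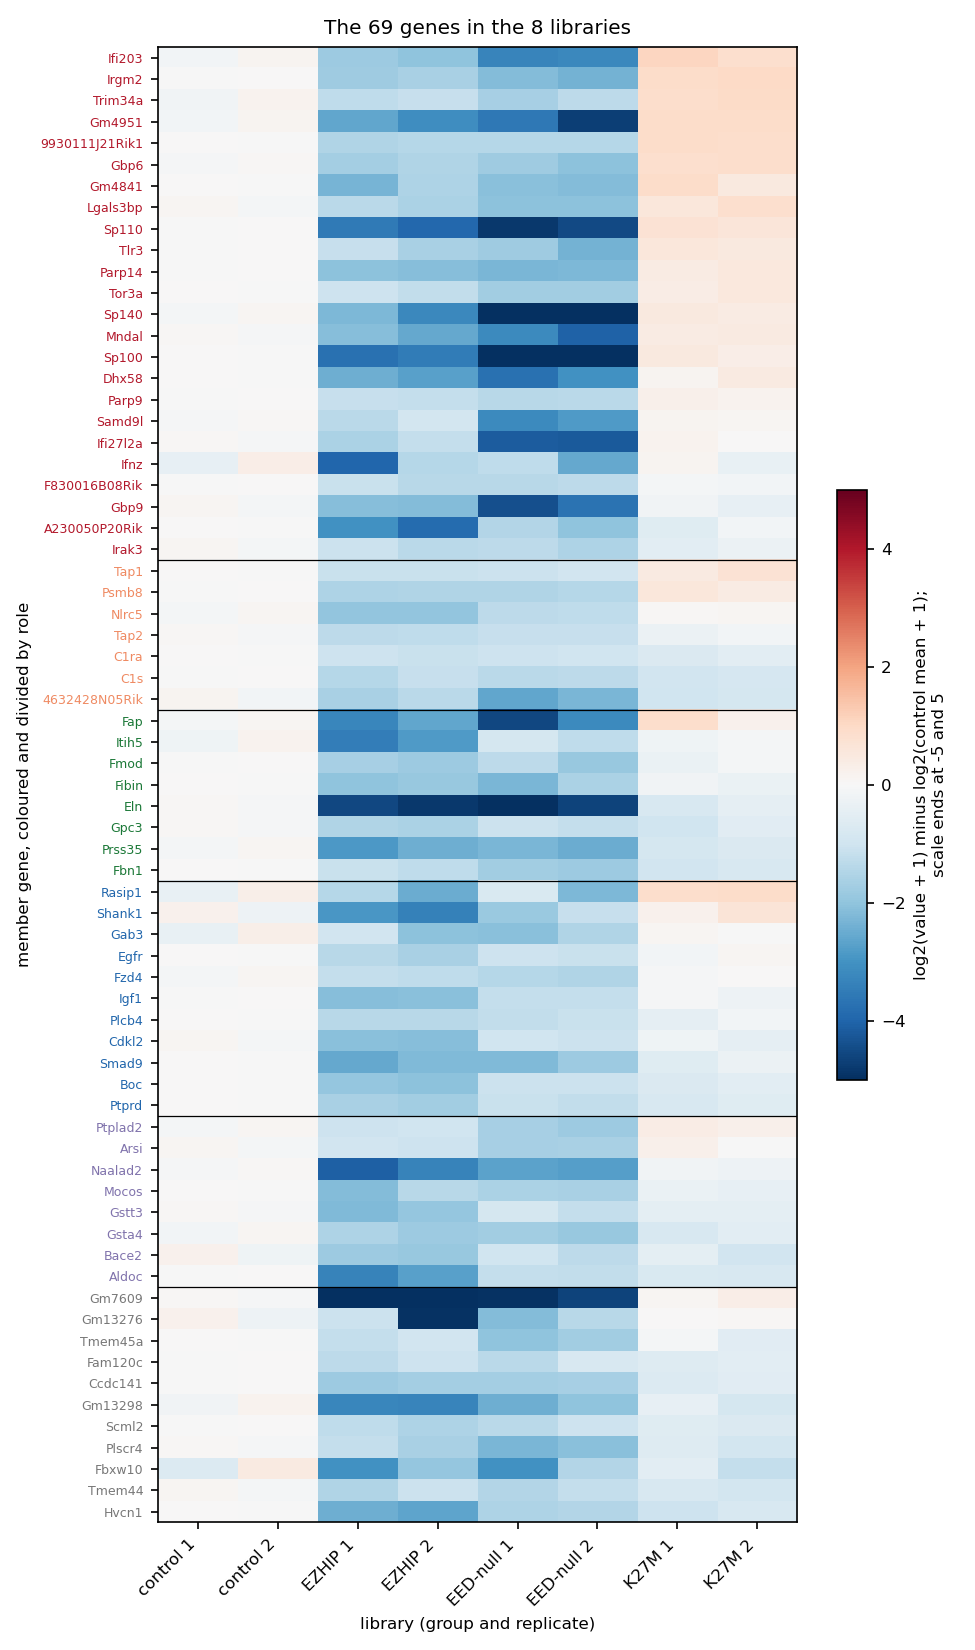
Heat map of the 69 genes (vertical axis, grouped by role) in the 8 libraries (horizontal axis). Color gives the log2 difference of each library from the control mean. The EZHIP and EED-null columns are below control for all 69 genes, as the choice of genes requires, and the K27M columns are above control mainly in the interferon and innate immune block.

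The lowest EED-null values relative to control in this role were in the *Sp100* family, which encodes proteins of nuclear bodies that are induced by interferon and bind chromatin. *Sp100* had values of 341 and 329.8 in control, 24.3 and 28.5 with EZHIP, 2.77 and 1.94 in EED-null and 469 and 425 in K27M cells. *Sp140*, known as a repressor in macrophages, had values of 98.3 and 115, 21.8 and 10.6, 0 and 0, and 148 and 143 in the same order of groups, which is kept wherever 4 pairs of values follow a gene. For *Sp110* they were 64.7 and 67.9, 4.73 and 3.42, 1.39 and 1.94, and 111 and 102. In all 3 genes the 4 groups did not overlap, EED-null was lowest, EZHIP was next and K27M was above control. In EED-null cells *Sp140* had 0 reads against 251 in control, which makes it at least 30.1-fold lower (floor of 3 reads per library). *Sp100* had 4 EED-null reads against 780 in control, a ratio of 147-fold (95% counting interval 57.1 to 540), and *Sp110* had 3 against 155, a ratio of 38.9-fold (13.1 to 191). These intervals cover counting error only.

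Members of the interferon-inducible GTPase families, which attack the vacuoles of intracellular pathogens, made up 7 of the 24 members of this role. *Gbp9* had values of 147 and 129 in control, 30.8 and 29.6 with EZHIP, 5.55 and 9.69 in EED-null and 123 and 103 in K27M cells. Its neighbor *Gbp6* had 479 and 522, 151 and 176, 146 and 119, and 897 and 924. K27M was thus below both controls for *Gbp9* and above both for *Gbp6*. *Irgm2*, a regulator of the immunity-related GTPases, had 565 and 574 in control, 167 and 184 with EZHIP, 125 and 110.5 in EED-null and 1075 and 1133 in K27M cells, a K27M difference of 0.95. *Gm4951*, another GTPase of this kind, had 68.8 and 83.2, 11.8 and 7.98, 5.55 and 1.94, and 144 and 144. All K27M libraries of *Irgm2* and *Gm4951* were above control, near the 2-fold limit. The GTPase genes *Gm4841*, *F830016B08Rik* and *9930111J21Rik1* had differences of -1.88, -1.24 and -1.46 in EZHIP and of -2.12, -1.35 and -1.41 in EED-null cells. Genes of these families resemble each other closely, and reads may have been divided among copies when expression was estimated.

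The members also include RNA sensors and their regulators. *Dhx58* (LGP2, a regulator of the RIG-I-like receptors) had values of 275 and 271 in control, 49.7 and 41.0 with EZHIP, 19.4 and 32.9 in EED-null and 302 and 368 in K27M cells. *Tlr3*, the endosomal receptor for double-stranded RNA, had 153 and 159, 69.8 and 50.2, 44.4 and 29.1, and 233 and 221. Both were lowest in EED-null and above both controls in K27M cells. *Irak3*, a negative regulator of Toll-like receptor signaling, was instead below both controls in K27M, with values of 279 and 249 in control, 125 and 104 with EZHIP, 107 and 91.1 in EED-null and 183 and 218 in K27M. *Ifi203* and *Mndal*, 2 genes of the AIM2-like receptor family, overlap on the same strand, so their reads cannot be cleanly separated. *Ifi203* had 154 and 188, 47.3 and 42.2, 16.6 and 17.4, and 366 and 309, the largest K27M difference of any member. *Mndal* had 116 and 109, 24.9 and 18.2, 11.4 and 5.89, and 149 and 155. *Trim34a*, of a family of restriction factors, had 67.8 and 87.1 in control, 32.0 and 34.2 with EZHIP, 23.6 and 31.0 in EED-null and 145 and 150.4 in K27M cells, with K27M above both controls.

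Among the effectors, *Samd9l*, an antiviral restriction factor, had values of 1409.5 and 1543 in control, 581 and 782 with EZHIP, 162 and 207 in EED-null and 1638 and 1579 in K27M cells. *Ifi27l2a* had 614 and 574, 198 and 259, 31.9 and 31.0, and 676 and 610.5. These genes were 2.17-fold and 2.60-fold below control with EZHIP and 7.99-fold and 18.9-fold below it in EED-null cells, with K27M at or slightly above control. *Parp9* and *Parp14*, ADP-ribosyltransferase family genes that act in interferon signaling, had differences of -1.16 and -2.10 in EZHIP, -1.38 and -2.25 in EED-null, and 0.22 and 0.46 in K27M cells. *Lgals3bp*, a secreted glycoprotein, and *Tor3a*, an interferon-responsive ATPase, were at 0.72 and 0.45 in K27M and at -2.06 and -1.74 in EED-null cells. *A230050P20Rik* (Shfl), an inhibitor of viral frameshifting and translation, ran the other way round. Its values were 50.5 and 48.1 in control, 5.24 and 2.50 with EZHIP, 17.4 and 11.4 in EED-null and 32.2 and 44.7 in K27M, lowest in EZHIP. The type I interferon gene *Ifnz* itself had few reads, with values of 10.8 and 18.7 in control and between 0 and 5.53 in the EZHIP and EED-null libraries.

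A wider list of 48 interferon response genes was used as reference. 26 of them are in the table, and 4 of those are members (*Dhx58*, *Irgm2*, *Parp9* and *Parp14*). All 26 were called lower in EZHIP (43.1% of all 875 genes were), 25 were called lower in EED-null (25.1% of all genes), and 19 were called higher in K27M cells (41.4% of all genes). A call here is an adjusted p under 0.05 in limma together with a 2-fold change. The K27M median of the 26 was 1.40, so that most of this list lay above the upper K27M limit that the members meet. The table was selected on a 2-fold change in EZHIP in either direction. This fixes that each listed gene differs there, so the EZHIP calls are not evidence of a change, but it does not fix the direction. For the 4 members the rule required the EED-null fall and kept K27M below its upper limit. The shares of all genes include 495 genes above control in EZHIP, unlike the 26, so they are not a matched background. The EED-null and K27M counts are therefore not read as a result about the list.

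**Figure D2:**
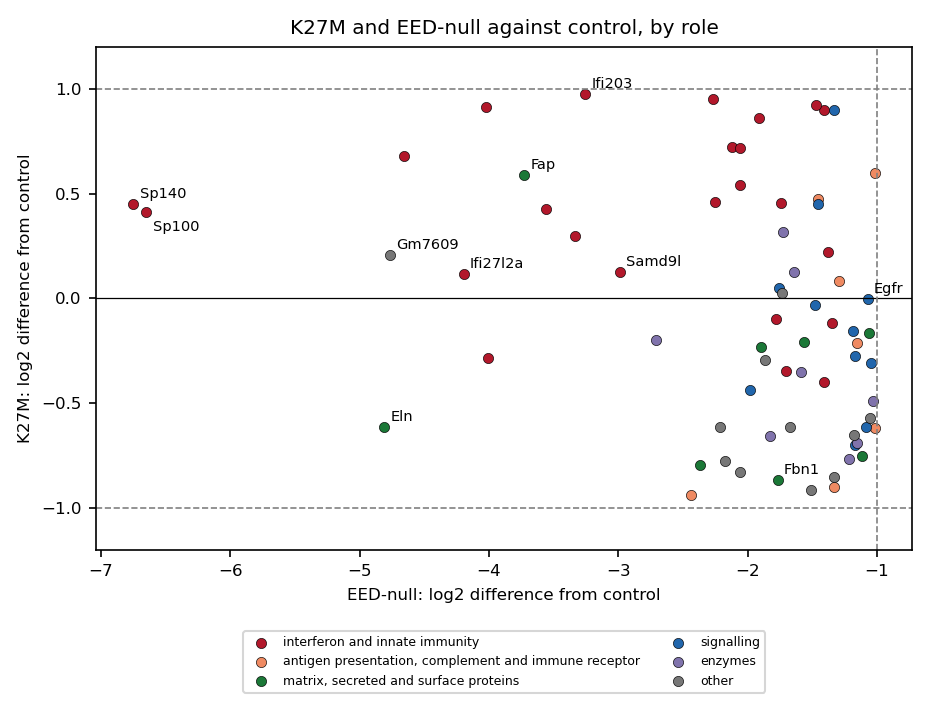
Log2 difference from control in K27M (vertical axis) against that in EED-null (horizontal axis) for the 69 genes, colored by role, with the limits of the choice as dashed lines. Interferon and innate immune genes occupy most of the upper part of the plot, from *Ifi203* at 0.98 down, and the lowest EED-null values, *Sp140* at -6.75 and *Sp100* at -6.65.

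The promoters of 6 members held the ISRE letters, GAAA and GAAA with 2 bases of any kind between them, on either strand between 250 bases before and 50 bases after the start of the gene. RefSeq promoter sequences (GRCm38.p6) were matched for 45 of the 69 members. The 6 were 13.3% of the 45, compared with 7.75% of 619 listed genes and 3.99% of 27025 genes. The upstream 100 bases of the *Irgm2* (chr11:58214877-58214976, plus strand), *Ifi203* (chr1:173942493-173942592, minus strand) and *Mndal* (chr1:173880188-173880287, minus strand) promoters are shown because the match lies there on the strand of the gene. That of *Fbn1* (chr2:125506439-125506538, minus strand) is shown because it was the only match outside the interferon and innate immune role. Each is 5′ to 3′ on the strand of the gene with the matching letters in capitals.
Irgm2: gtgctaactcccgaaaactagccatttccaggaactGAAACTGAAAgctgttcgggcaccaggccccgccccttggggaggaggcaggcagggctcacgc
Ifi203: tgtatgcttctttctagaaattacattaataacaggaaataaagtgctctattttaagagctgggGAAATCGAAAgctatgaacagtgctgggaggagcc
Mndal: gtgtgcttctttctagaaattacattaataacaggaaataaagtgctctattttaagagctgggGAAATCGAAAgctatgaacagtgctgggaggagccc
Fbn1: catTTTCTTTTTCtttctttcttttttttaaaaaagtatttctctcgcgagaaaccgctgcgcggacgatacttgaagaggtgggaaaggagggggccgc

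The *Irgm2* match spans -64 to -55. The *Ifi203* and *Mndal* windows share an unbroken run of 96 bases, which includes the match at -35 to -26 of *Ifi203* and -36 to -27 of *Mndal*. In *Fbn1* the letters are on the opposite strand at -97 to -88, inside a pyrimidine-rich stretch. *Trim34a* (11 to 20) and *9930111J21Rik1* (27 to 36) have theirs after the start of the gene. By role, 5 of 13 matched interferon and innate immune members (38.5%) and 1 of 32 other members (3.13%) held the letters. A second element called GAS (TTCNNNGAA, with N any base) was also searched for. It was found in 5 of the 45 matched members (11.1%), 7.59% of listed genes and 9.55% of all genes. Of the 13 matched interferon and innate immune members, 1 held it (7.69%). A match of letters is not evidence of binding.

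Promoters of the members were also poor in CpG. The ratio of observed to expected CpG was above 0.6 in 8 of 45 (17.8%), against 57.8% of listed genes, 38.3% of all genes, 39.4% of 71 genes lowered in all 3 lines and 62.5% of 80 genes lowered in EZHIP only. It was lower still, 3.70%, in 27 genes that were lowered in EZHIP and EED-null but raised at least 2-fold in K27M cells, of which 51.9% held the ISRE letters. On both features the members as a whole lay between that class and the genes lowered in all 3 lines. By role, the CpG ratio was above 0.6 in 1 of 13 matched interferon and innate immune members (7.69%) and 7 of 32 others (21.9%). The 3.13% of these others with the ISRE letters was below the 5.63% of genes lowered in all 3 lines. The comparison classes were not filtered by name.

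**Figure D3:**
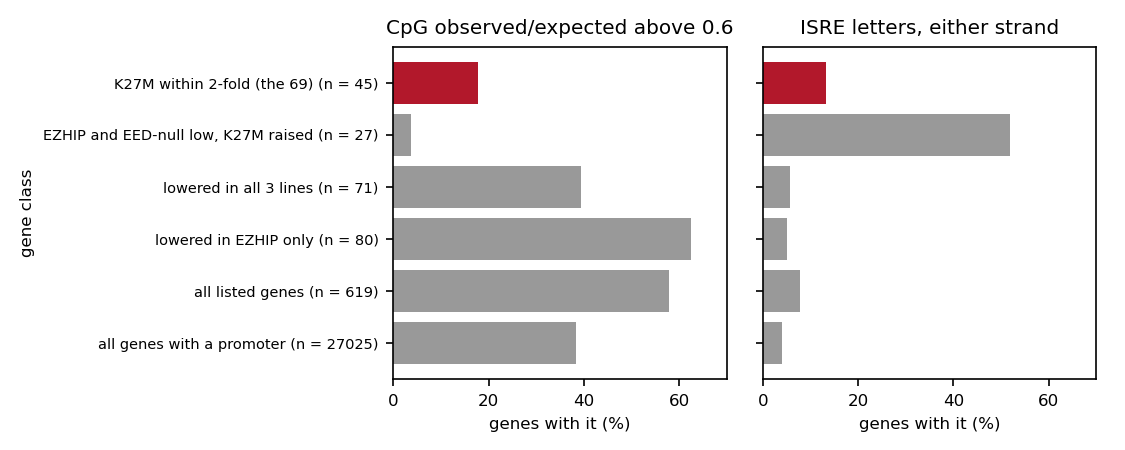
Share of genes (horizontal axes, percent) in each gene class (vertical axis, with the number of genes matched to a promoter) whose promoter has a CpG observed to expected ratio above 0.6 (left) or holds the ISRE letters (right). The members (17.8% and 13.3%) lie between the genes raised in K27M (3.70% and 51.9%) and those lowered in all 3 lines (39.4% and 5.63%).

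The 7 members of antigen presentation, complement and immune receptor function had smaller falls, with medians of -1.30 in EZHIP and -1.29 in EED-null cells. *Tap1* and *Tap2* encode the subunits of the peptide transporter of the MHC class I pathway. *Tap1* had values of 857 and 838 in control, 387 and 386 with EZHIP, 398 and 439 in EED-null and 1154 and 1414 in K27M cells. *Tap2* had 613 and 578, 238 and 246, 265 and 269, and 492 and 536. K27M cells were above both controls for *Tap1* and below both for *Tap2*, although the genes are neighbors. *Psmb8*, an immunoproteasome subunit that lies between them, had 452 and 468, 156 and 161, 162 and 172, and 676 and 603, with K27M above both controls. *Nlrc5*, the transactivator of MHC class I genes, had 565 and 642 in control, 154 and 153 with EZHIP, 244 and 247 in EED-null and 634 and 645 in K27M, overlapping with control. The complement proteases *C1ra* and *C1s* were at -1.06 and -1.28 in EZHIP, -1.02 and -1.33 in EED-null and -0.62 and -0.90 in K27M cells. Both were below control in every line. *4632428N05Rik* (Vsir), which encodes the inhibitory immune receptor VISTA, was at -1.47, -2.44 and -0.94 in these lines. On a list of 45 complement and antigen presentation genes, 10 are in the table, and 6 of them are members. Of the 10, 7 were called lower in EED-null cells (25.1% of all genes) and 1 higher (39.9%), and 3 were called higher in K27M cells (41.4%). For the 6 members the rule required the EED-null fall and kept K27M below its upper limit. These counts are therefore not read as a result about the list.

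The 8 matrix and secreted members had medians of -2.31 in EZHIP, -1.83 in EED-null and -0.42 in K27M cells. *Eln* encodes elastin, the core of elastic fibers, and had values of 2478 and 2325 in control, 102 and 83.2 with EZHIP, 73.5 and 95.9 in EED-null and 1388 and 1749.6 in K27M cells. This is a 26.0-fold fall with EZHIP and a 28.4-fold fall in EED-null cells, against 1.53-fold in K27M. *Fbn1*, which encodes the fibrillin microfibrils on which elastin is laid down, had 4760.2 and 4715, 2164 and 1961, 1417 and 1361, and 2471 and 2723. Both elastic fiber genes were below both controls in all 3 lines, and *Fbn1* in K27M (-0.87) came near the 2-fold limit. *Fap*, a cell surface protease of activated fibroblasts, had 82.1 and 94.5 in control, 8.29 and 13.7 with EZHIP, 2.77 and 8.72 in EED-null and 162 and 104 in K27M, the only gene of this group with K27M above both controls. *Itih5*, which encodes a hyaluronan-associated protein, had 53.4 and 70.9, 4.73 and 7.98, 33.3 and 25.2, and 52.9 and 57.7. It was far lower in EZHIP than in EED-null cells, and K27M overlapped with control. *Fmod* (fibromodulin, a collagen-binding proteoglycan) and *Gpc3* (a heparan sulfate proteoglycan) were at -1.74 and -1.54 in EZHIP, -1.56 and -1.12 in EED-null, and -0.21 and -0.75 in K27M cells. *Prss35* and *Fibin* were at -2.65 and -1.96 in EZHIP and -2.37 and -1.90 in EED-null cells.

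Of 14 fibroblast markers, 3 are in the table, *Fap*, *Col3a1* and *Dcn*, all with reads in control cells. *Col3a1* was at -1.42, -1.62 and -2.89 and *Dcn* at -1.27, -2.36 and 3.11 in EZHIP, EED-null and K27M cells. All 3 markers were thus below control in EZHIP and EED-null cells, as the rule requires of *Fap*. In K27M cells they parted, with *Col3a1* below control and *Fap* and *Dcn* above it. Leukocyte and skeletal muscle markers (0 in the table) could not be assessed. For markers of other cell types in the table, mean values in control, EZHIP, EED-null and K27M were 9.42, 51.7, 10.9 and 189 for endothelial *Kdr*, and 4.93, 15.8, 29.6 and 75.0 for epithelial *Epcam*. They were 0, 32.0, 4.10 and 50.1 for epithelial *Krt14*, 0, 151, 258 and 0 for neural *Sox2*, and 1208, 498, 199 and 451 for *Cspg4* of pericytes. Markers not in the table could not be assessed. For those shown, the selection of the table at 2-fold between EZHIP and control fixed a difference there in advance. Their values are therefore not read as a change in cell makeup. Fewer cells of one kind and less RNA per cell cannot be told apart in bulk libraries, and the part of these markers in the members' falls was not tested.

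**Figure D4:**
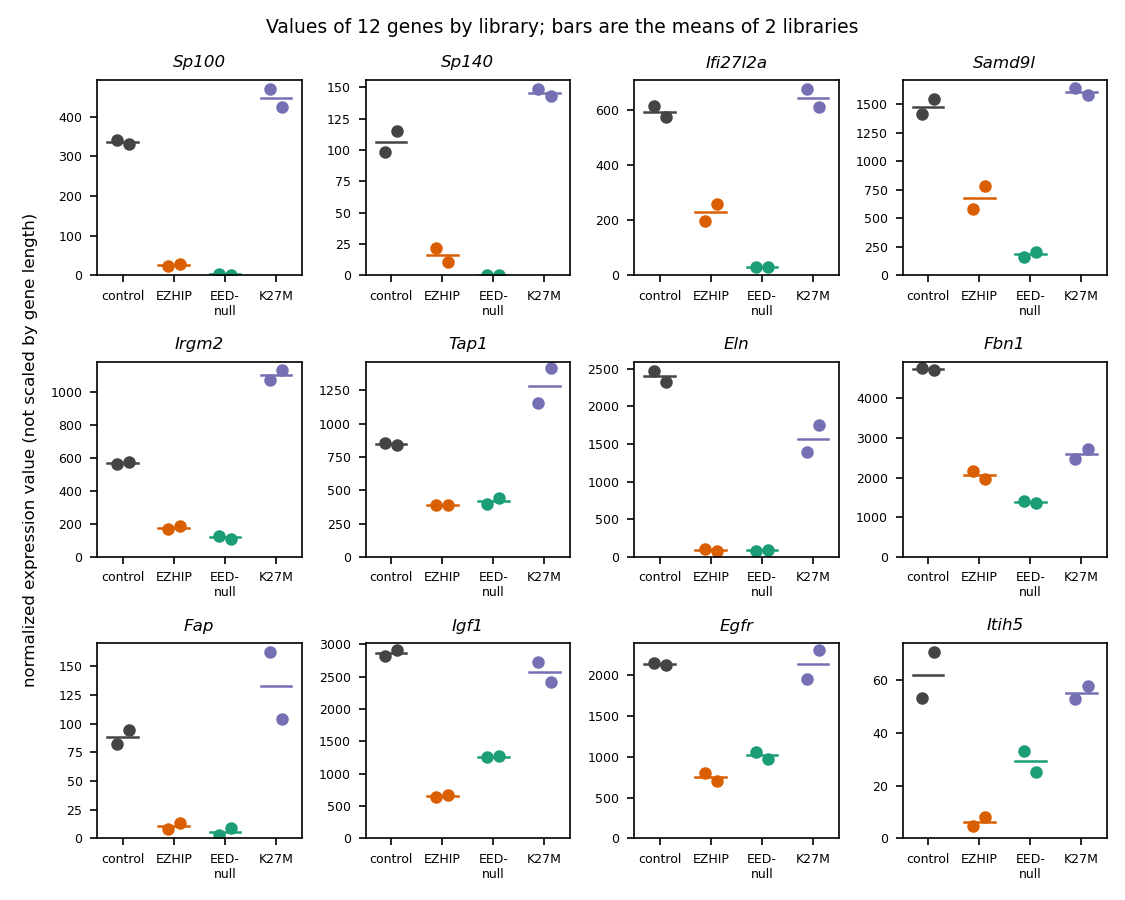
Normalized values (vertical axes, not scaled by gene length, starting at 0) of 12 genes in the 2 libraries of each group (horizontal axes); points are libraries and bars the mean of 2. *Sp100*, *Sp140*, *Ifi27l2a* and *Samd9l* are lower in EED-null than in EZHIP, *Itih5* and *Igf1* are lower in EZHIP than in EED-null, and *Eln* has means of 92.5 in EZHIP and 84.7 in EED-null.

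Signaling members had median differences of -1.85 with EZHIP and -1.18 in EED-null cells, and the difference between these medians was not tested. The ligand *Igf1*, a growth factor made by fibroblasts, had values of 2822 and 2909 in control, 647 and 670.3 with EZHIP, 1257 and 1267 in EED-null and 2727 and 2420.1 in K27M cells. Among receptors, *Egfr*, the epidermal growth factor receptor, had 2149.6 and 2132, 808 and 703, 1056 and 979, and 1953 and 2318, and its K27M mean was the nearest to control of all members. *Fzd4*, a Wnt and norrin receptor, had 296 and 331, 136 and 130.0, 115 and 109, and 298 and 315. These receptors were below control in EZHIP and EED-null while K27M overlapped with control. *Boc*, a co-receptor for hedgehog ligands, had 1926 and 1911 in control, 497 and 468 with EZHIP, 905 and 901 in EED-null and 1168 and 1336 in K27M. *Ptprd*, a receptor tyrosine phosphatase, had 2593 and 2578, 836 and 771, 1196 and 1102, and 1494 and 1685. For both, EZHIP was lowest and K27M lay between EED-null and control. Of the intracellular members, *Smad9*, a transducer of BMP signals, was at -2.38, -1.98 and -0.44 in EZHIP, EED-null and K27M, and *Plcb4*, a phospholipase C, at -1.38, -1.17 and -0.28. *Shank1*, a synaptic scaffold gene, had 39.0 and 27.3 in control, 3.55 and 2.28 with EZHIP, 8.32 and 14.5 in EED-null and 39.0 and 52.5 in K27M, with only 5 EZHIP reads. Of 10 listed growth factor and receptor genes 2 are members, of 18 Wnt genes 1 and of 12 TGF-beta and BMP genes 1, and in EED-null cells 4, 11 and 6 of these were called higher (39.9% of all genes) and 3, 4 and 2 lower (25.1% of all genes). In K27M cells 7, 11 and 7 were called in either direction (61.4% of all genes), of which 5, 8 and 5 were higher (41.4% of all genes). These small counts are not read as a result about the lists. *Gab3* and *Rasip1*, adaptor genes with control values of 13.3 to 32.5, had few reads in every group. After the exclusions by name, the lists of Polycomb subunits, axon guidance and cell adhesion, cell cycle, cytokine and chemokine, imprinted, lipid handling, muscle and contractile, and mesenchyme and limb transcription factor genes, with 2, 22, 4, 10, 8, 6, 4 and 24 genes in the table, held 0 members.

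Enzymes and other members are given mostly as single genes. *Aldoc*, a glycolytic aldolase, had values of 139 and 143 in control, 13.0 and 20.5 with EZHIP, 61.0 and 59.1 in EED-null and 83.5 and 81.3 in K27M cells. *Naalad2*, a peptidase gene, had 130.4 and 143, 7.10 and 12.5, 20.8 and 19.4, and 122 and 115. Both were lowest in EZHIP and below both controls in K27M. The glutathione transferases *Gstt3* and *Gsta4* were at -2.06 and -1.68 in EZHIP and -1.03 and -1.82 in EED-null cells. *Mocos*, *Bace2*, *Arsi* and *Ptplad2* were between -1.86 and -1.01 in EZHIP. *Gm7609* had the largest EZHIP fall of all, with 73.7 and 69.1 in control, 1.18 and 1.14 with EZHIP, 1.39 and 1.94 in EED-null and 75.7 and 89.3 in K27M. Its EZHIP libraries held 2 reads in all against 166 in control, a ratio of 61.4-fold (95% counting interval 16.7 to 511), and its EED-null libraries held 3, a ratio of 41.7-fold (14.0 to 204). *Hvcn1*, the voltage-gated proton channel, was at -2.52, -1.51 and -0.92, and *Plscr4*, a scramblase family gene, at -1.39, -2.18 and -0.78 in EZHIP, EED-null and K27M. *Scml2*, a Polycomb-associated gene, was at -1.39, -1.18 and -0.65. *Gm13276* is the member next to *Ifnz*, with 34.3 and 24.3 in control, 13.4 and 0 with EZHIP, 5.70 and 10.6 in EED-null and 29.6 and 30.2 in K27M. *Ccdc141*, *Tmem44*, *Tmem45a* and *Fam120c* were between -1.74 and -1.08 in EZHIP and between -1.86 and -1.05 in EED-null cells. *Fbxw10* was close to the detection limit in every group, with 18 control reads.

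The rule did not fix whether a member was lower in EED-null or in EZHIP cells, and this difference was tested directly. The same EZHIP and EED-null libraries also chose the members, so the test is not independent of the choice. Nothing states that the 2 libraries of a group came from separate cultures, so the p-values measure the spread between these libraries, which may be technical. Control cells cancel from this comparison, but the requirement of a 2-fold fall in both lines limits how far the lines can differ. Of the 69 members, 17 (24.6%) were called different between EED-null and EZHIP cells (limma on log2(value + 1) over all 8 libraries, Benjamini-Hochberg adjusted p under 0.05 over 875 genes and at least 2-fold), against 44.9% of all genes. 8 were lower in EED-null (19.8% of all genes) and 9 higher (25.1% of all genes). The median difference over the members was 0.03, and for 36 members the 95% interval lay wholly within 2-fold. At adjusted p under 0.05 alone, 20 members were lower and 15 higher.

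All 8 members called lower in EED-null cells had an interferon or innate immune role. They were 8 of the 24 members of this role, against 19.8% of all genes, and the roles were assigned after the values had been seen. *Sp140* had no EED-null read against 27 EZHIP reads, at least 4.59-fold lower (adjusted p = 0.000132, limma). *Sp100* was lower by a log2 difference of -3.04 (SE 0.16, adjusted p = 4.445e-05, limma), and by its 4 reads against 46 the ratio was 11.7-fold (95% counting interval 4.28 to 44.8). *Ifi27l2a* differed by -2.81 (SE 0.15, adjusted p = 5.01e-05, limma), *Gbp9* by -1.90 (SE 0.24, adjusted p = 0.000793, limma) and *Samd9l* by -1.87 (SE 0.19, adjusted p = 0.000328, limma). *Ifi203* (-1.34), *Gm4951* (-1.29) and *Mndal* (-1.27) were the others. Because *Ifi203* and *Mndal* overlap on the same strand, their calls are not separate observations. For all 8 genes both EED-null libraries were below both EZHIP libraries. K27M was above both controls for 6 of the 8, overlapped with control for *Ifi27l2a* and was below it for *Gbp9*. Of the other members of this role 15 were not called, and 6 of these passed the p threshold below 2-fold. Among the 15 were *Sp110* (-0.93, 3 reads against 7, adjusted p = 0.00363, limma), *Irgm2* (-0.57, adjusted p = 0.00474, limma) and *Parp14* (-0.15, interval -0.40 to 0.10). The remaining 1, *A230050P20Rik*, was higher.

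The 9 members called higher in EED-null cells, that is lower in EZHIP, came from several roles. *Itih5* differed by 2.06 (SE 0.27, adjusted p = 0.000823, limma), *Aldoc* by 1.81 (SE 0.20, adjusted p = 0.000471, limma), *A230050P20Rik* by 1.69 (SE 0.34, adjusted p = 0.00496, limma) and *Shank1* by 1.64 (SE 0.33, adjusted p = 0.00516, limma). *Cdkl2* (1.06), *Gm13298* (1.04), *Gstt3* (1.02), *Hvcn1* (1.01) and *Naalad2* (1.01) were just past 2-fold. *Gm4951*, *Mndal*, *Gm13298*, *Gstt3*, *Hvcn1* and *Naalad2* lost their call when 1 library was left out. Rescaling on the listed genes left 4 higher and 9 lower calls. *Igf1* (0.94, interval 0.68 to 1.19) and *Boc* (0.90, interval 0.64 to 1.17) passed the p threshold below 2-fold. For *Eln* the difference was -0.13 (interval -0.60 to 0.34), and for *Tap1*, *Tap2* and *Psmb8* it was between 0.08 and 0.14, each with an interval within 2-fold.

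**Figure D5:**
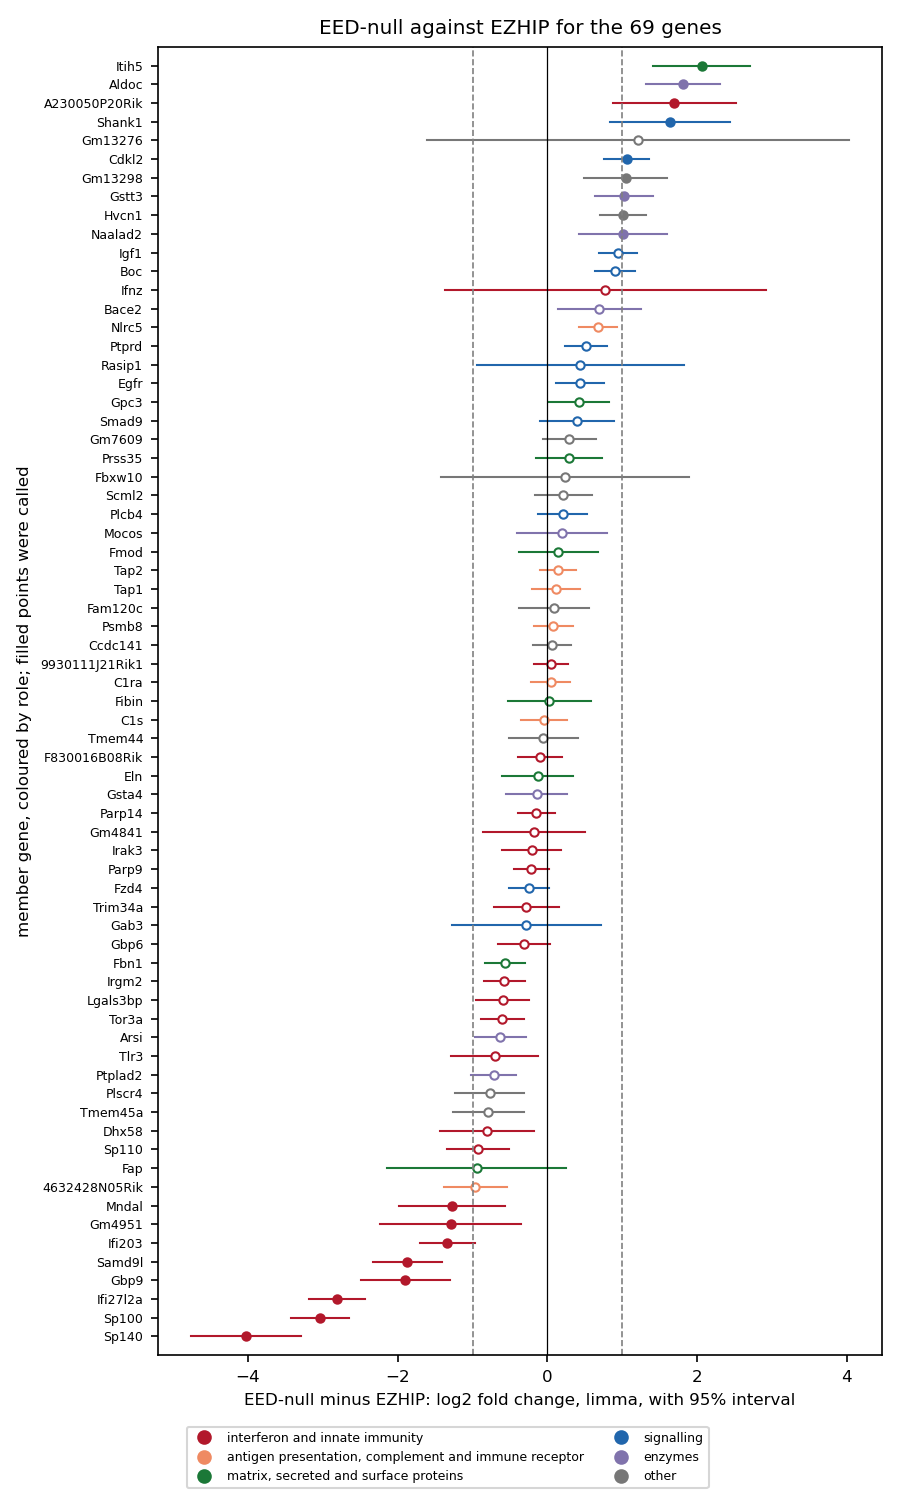
Log2 fold change of EED-null against EZHIP (horizontal axis, limma) with its 95% interval for the 69 genes (vertical axis), colored by role. Filled points were called at adjusted p under 0.05 and 2-fold, and dashed lines mark 2-fold. The 8 genes called lower are all among the 24 interferon and innate immune genes. They run from *Sp140* (-4.03, with 0 EED-null reads, so its size depends on the added 1) to *Mndal* (-1.27).

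In mm9 coordinates (GENCODE M1), 19 of the 69 members (27.5%) had another member within 200 kb, compared with 4 of 97 genes lowered in all 3 lines (4.12%), 10 of 111 lowered in EZHIP only (9.01%) and 17 of 35 lowered in EZHIP and EED-null but raised in K27M (48.6%). Of all listed genes, a longer list in which neighbors are more frequent, 259 of 854 (30.3%) had another listed gene within that distance, so the members' share is not above it. Some of the neighboring members are related genes. *Sp110* (chr1:87473474-87495392, minus strand), *Sp140* (chr1:87496953-87541612, plus strand) and *Sp100* (chr1:87546563-87606573, plus strand) are adjacent, with gaps of 1560 and 4950 bp. *Tap1*, *Psmb8* and *Tap2* follow one another on chromosome 17 (chr17:34324498-34334170, chr17:34334666-34338399 and chr17:34340472-34353266, all plus strand) with gaps of 495 and 2072 bp. *C1ra* and *C1s* on chromosome 6 lie 6904 bp apart, *Parp14* and *Parp9* on chromosome 16 lie 66925 bp apart, *Gbp6* and *Gbp9* on chromosome 5 lie 160411 bp apart, and *Ifnz* and *Gm13276* on chromosome 4 lie 1370 bp apart. The single-gene members *Eln* (chr5:135179651-135223111, minus strand), *Igf1* (chr10:87321010-87399792, plus strand) and *Egfr* (chr11:16652206-16818161, plus strand) had no other member nearby. Neighbors did not always share the K27M direction, as *Tap1* and *Tap2* or *Gbp6* and *Gbp9* show. 10 members overlap another annotated coding gene on the same strand and 15 on the opposite strand, and reads of such genes may not be separable.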

How the data were processed

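RNA of 8 libraries (2 each from control, EZHIP, EED-null and K27M MEFs) was total RNA depleted of ribosomal RNA. Per the labels and the submitters' processing notes, the authors estimated expression with RSEM 1.2.4 on mm9 and normalized it with EBSeq. The deposited values are a signal, expected counts divided by a size factor, for 875 genes selected at 2-fold between EZHIP and control. The samples also contained spiked-in RNA from other cells, and whether it entered the size factors is not given in the sources used here. Whole reads were recovered for 72.2% to 82.5% of values (tolerance 0.005), too few for a count model, so no count test was run. The read numbers given were derived from the smallest step of each library.

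Values were tested as log2(value + 1) with limma 3.58.1 in R 4.3.3 (Python 3.11.15, pandas 2.3.3, numpy 2.4.6, scipy 1.17.1 and matplotlib 3.10.9 for the rest), fitted on all 8 libraries and 875 genes without a filter on low values, with Benjamini-Hochberg adjustment over all genes. The procedure was tested on simulated data. Members and gene lists were chosen with earlier results of these data known. All sample columns were mapped to a group. Genes named by rule, among the 61 members with a control mean of at least 50 and no overlap with control, were the 8 with the largest fall in EZHIP and in EED-null and the 4 with the highest control mean. To these were added the 4 largest differences each way between EED-null and EZHIP, the 3 nearest to and the 3 farthest above control in K27M, members on the gene lists, and the genes at each limit. Other members were named after their values were seen, to account for each role. Alternatives changed the pseudocount, a filter on low values, the scaling, the fold limits, the libraries used and the replicate block.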

Additional observations from a re-analysis of the deposited data

Results flagged for a closer look

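Among the members, 8 were called lower (19.8% of all genes) and 9 higher (25.1% of all genes) in EED-null than in EZHIP cells by the limma test of the difference itself. The 24.6% of members called in either direction were fewer than the 44.9% of all genes. The choice of members required a 2-fold fall in both lines and so limits how far these can differ. The lower share is therefore not read as a result about the members. The largest differences (log2, EED-null minus EZHIP) were -4.03 for *Sp140*, -3.04 for *Sp100*, -2.81 for *Ifi27l2a* and -1.90 for *Gbp9* on the lower side, and 2.06 for *Itih5*, 1.81 for *Aldoc*, 1.69 for *A230050P20Rik* and 1.64 for *Shank1* on the higher side. With 0 EED-null reads, the *Sp140* value depends on the added 1, and the read counts allow at least 4.59-fold. All 4 on the lower side have an interferon or innate immune role, as does *A230050P20Rik* on the higher side. The EED-null cells are 1 clone, so a difference of the clone and a difference of EED loss cannot be told apart. No group of 2 libraries could be examined for a library that stands apart.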

How the results depend on the processing

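The 69 members became 27 when falls of 3-fold were required, 67 with a pseudocount of 5 (64 shared), 80 after rescaling on the listed genes (49 shared) and 53 with limits of 1.5-fold (38 shared). Leaving out 1 library gave 65 to 73, and 36 genes were members in all 13 settings that kept the fold limits. Calls lower in EED-null than EZHIP went from 8 to 20 at adjusted p alone, and were 8 to 10 without 1 library. Calls higher went from 9 to 4 with a pseudocount of 5, 4 after rescaling and 15 at adjusted p alone, and were 7 to 9 without 1 library. The median difference from control became -1.60 (pseudocount 5) and -2.05 (rescaled) in EZHIP, -1.50 and -2.10 in EED-null, and -0.14 (mean of at least 5) and -0.61 (rescaled) in K27M. Without 1 library it ran from -1.74 to -1.70, -1.73 to -1.65 and -0.19 to -0.11. No result changed sign as a call. Calls of EED-null and of K27M against control over the whole table stayed within 1.5 times in all 15 alternatives.

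Of the 17 called genes, 10 kept their call in all 16 alternatives. *Gm4951* missed the threshold without EED-null replicate 2 (adjusted p = 0.0611, limma), without EZHIP replicate 1 (adjusted p = 0.115, limma) and with only the EED-null and EZHIP libraries fitted (adjusted p = 0.0705, limma), over a range of 0.00335 to 0.115. Without 1 library, others fell below 2-fold: *Mndal* to -0.85 and *Gm13298* to 0.83 without EED-null replicate 2, *Gstt3* to 0.89 without EZHIP replicate 1 and 0.86 without EED-null replicate 1, *Naalad2* to 0.64 and 0.96 without the same libraries, and *Hvcn1* to 0.91 without EZHIP replicate 2 and 0.98 without EED-null replicate 2. With a pseudocount of 5, *Gm4951* (-0.79), *Mndal* (-0.98), *Gm13298* (0.64), *Gstt3* (0.96), *Hvcn1* (0.95), *Naalad2* (0.78) and *Cdkl2* (0.99) fell below 2-fold. After rescaling, *Gm13298* (0.97), *Gstt3* (0.95), *Hvcn1* (0.94), *Naalad2* (0.93) and *Cdkl2* (0.98) did so. A fit with the replicate number as a block gave 8 lower and 9 higher calls. Groups share only 2 replicate numbers, and the correlations of deviations of the same number lay between -0.09 and 0.11. Depth limits genes at 3 reads or fewer, whose folds are bounds or carry wide counting intervals.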

Other observations

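Listed genes that are not members but lie within 200 kb of one include other interferon-inducible genes that missed the K27M limit or the EED-null limit. *Mx1* and *Mx2*, antiviral GTPases near *Bace2*, differed from control by -2.71 and -1.64 in EZHIP, -4.77 and -3.27 in EED-null and 2.02 and 2.35 in K27M cells. *Igtp*, next to *Irgm2*, was at -1.41, -1.83 and 1.48, and *Ifih1*, next to *Fap*, at -1.31, -2.03 and 1.32. Near *Tap1* and *Psmb8*, the MHC class I gene *H2-K1* was at -1.18 in EZHIP, -0.91 in EED-null and 0.71 in K27M. Not all neighbors of members followed: *Prelp*, a proteoglycan gene near *Fmod*, was at -1.36, -5.65 and -4.16, and *Sfmbt2*, near *Itih5*, at 2.65, 4.42 and 1.78.

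Of the genes left out by name, *Stat2*, a subunit of the factor that binds the ISRE, had differences of -1.29 in EZHIP, -1.78 in EED-null and 0.83 in K27M, and *Ddx58*, the RNA sensor RIG-I, of -1.02, -1.41 and 0.67.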
